A study of Mus musculus with 6 samples.

Results

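The AP-1 genes described here are the 7 mouse genes that encode Fos and Jun proteins. They are Fos, Fosb, Fosl1 and Fosl2 of the Fos family and Jun, Junb and Jund of the Jun family. They were taken by gene name from the authors' deposited table, which holds 44065 genes. All 7 were found once each. The family was chosen by its FPKM levels in these same libraries, several of which had already been seen to be lower in the sedentary testes. Their levels in the 2 groups are therefore given as a description, with no test.

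Male C57BL/6 mice entered a 10-week exposure at the age of 6 weeks, and RNA was taken from their testes. The sedentary group (ST) had 3 mice and the control group (CT) had 3 mice, each with 1 library of total RNA from which ribosomal RNA had been depleted. The labels name no transgene or drug and do not say how activity was restricted. Another group, given physical activity as compensation, was not analysed here. By its title, the study asks how sedentary behavior and physical activity bear on sperm DNA damage and on the temperature of the testis.

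AP-1 is a dimeric transcription factor whose subunits join through a leucine zipper and bind DNA through a neighbouring basic region (the bZIP fold). Jun proteins can pair with each other or with Fos proteins, whereas Fos proteins need a Jun partner. Fos, Fosb, Jun and Junb are immediate early genes, switched on quickly by MAP kinases, serum response factor and CREB after a stimulus, and their messengers decay fast. Jund is made more steadily in many tissues. In the testis AP-1 is known from Leydig cells, Sertoli cells and germ cells, and Jun is studied there as a regulator of steroid synthesis.

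The promoters of 4 members are shown because 3 of them, Fos, Fosb and Junb, share the core of the CREB binding site, and Jun carries the variant AP-1 site through which it is known to regulate itself. The sequences are RefSeq windows on GRCm38.p6, 250 bases before to 50 after the gene start, written 5′ to 3′ on the gene's strand. Capitals mark TGACG, TGACATCA and TATAAA.
Fos promoter, chr12:85473640-85473939, plus strand: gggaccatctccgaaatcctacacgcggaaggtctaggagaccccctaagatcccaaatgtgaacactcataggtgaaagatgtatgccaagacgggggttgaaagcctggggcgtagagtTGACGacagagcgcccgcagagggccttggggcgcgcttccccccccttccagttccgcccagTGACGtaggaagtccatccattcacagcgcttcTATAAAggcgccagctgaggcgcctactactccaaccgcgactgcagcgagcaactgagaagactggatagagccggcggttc
Fosb promoter, chr7:19309996-19310295, minus strand: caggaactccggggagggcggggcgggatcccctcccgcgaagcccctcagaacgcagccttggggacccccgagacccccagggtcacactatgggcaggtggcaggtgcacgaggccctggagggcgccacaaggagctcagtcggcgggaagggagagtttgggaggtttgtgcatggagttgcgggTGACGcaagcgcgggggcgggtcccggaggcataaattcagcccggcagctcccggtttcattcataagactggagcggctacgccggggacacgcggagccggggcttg
Junb promoter, chr8:84978699-84978998, minus strand: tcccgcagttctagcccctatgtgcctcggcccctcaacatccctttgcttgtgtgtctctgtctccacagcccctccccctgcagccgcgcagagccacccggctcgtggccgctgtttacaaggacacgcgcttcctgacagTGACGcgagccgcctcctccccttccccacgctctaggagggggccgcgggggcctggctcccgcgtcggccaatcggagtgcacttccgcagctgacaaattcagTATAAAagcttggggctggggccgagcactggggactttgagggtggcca
Jun promoter, chr4:95052173-95052472, minus strand: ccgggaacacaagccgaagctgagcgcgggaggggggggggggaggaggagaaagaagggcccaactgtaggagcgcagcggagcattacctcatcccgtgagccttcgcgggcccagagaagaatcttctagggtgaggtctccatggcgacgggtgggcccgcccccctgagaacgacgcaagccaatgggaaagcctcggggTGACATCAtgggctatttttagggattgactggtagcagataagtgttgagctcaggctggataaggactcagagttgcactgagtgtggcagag
Of the 7 members, 6 matched an entry of the RefSeq table, and Fosl1 did not. Each motif was searched on both strands in 32851 promoter windows of the same length. TGACG, the core of TGACGTCA, lay in 3 of the 6 member promoters and in 20.8% of all promoters. Fos held it at 2 places, from 129 to 125 and from 66 to 62 bases before the start, Fosb from 60 to 56 and Junb from 106 to 102 bases before it. The full site TGACGTCA, which contains TGACG, lay in 0 of the 6 and in 1.79% of all promoters. TGACATCA lay in the Jun promoter from 45 to 38 bases before the start and in 3.62% of all promoters. TGACTCA, the AP-1 consensus, lay in 0 of the 6 and in 5.20% of all, and the CArG box, the site of serum response factor, in 0 of the 6 and in 1.63% of all. TATAAA lay in Fos and Junb and in 13.6% of all promoters. In Fos it lay from 33 to 28 bases before the start, and in Junb at the annotated start itself, from 0 to 5 bases past it. GGGCGG lay in 4 of the 6, Fos, Fosb, Fosl2 and Jun, and in 35.7% of all promoters. CCAAT lay in 2 of the 6, Jun and Junb, and in 37.4% of all. Motifs outside the 250 bases before to 50 after the start were not searched, so each count of 0 holds for these windows alone. The Jund window ends before the start of the 1-exon coding transcript used below for its 3′ untranslated region. These matches are letters in a window and not evidence that a factor binds there.

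The sedentary libraries held 34176662 to 38148228 reads and the control libraries 28495596 to 37654913, recovered from the deposited FPKM values (fragments per kilobase of gene length, here scaled by library totals that follow median-of-ratios size factors and not the summed reads). Expressed per length, Jund was the most abundant member in every library and Fos, Fosb and Fosl2 were among the rarer transcripts of the testis. Jund, averaged over the 6 libraries, lay above 80.5% of the protein-coding genes that passed the filter on low values (at least 0.5 FPKM in at least 3 libraries), and Fos lay above 5.40% and Fosl2 above 3.92% of them. All 7 passed the filter, but Fos and Fosl2 passed in 3 control and 0 sedentary libraries, that is only through the group in which they were higher. In bulk tissue a smaller number of expressing cells and less RNA in each cell cannot be told apart.

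**Figure D1:**
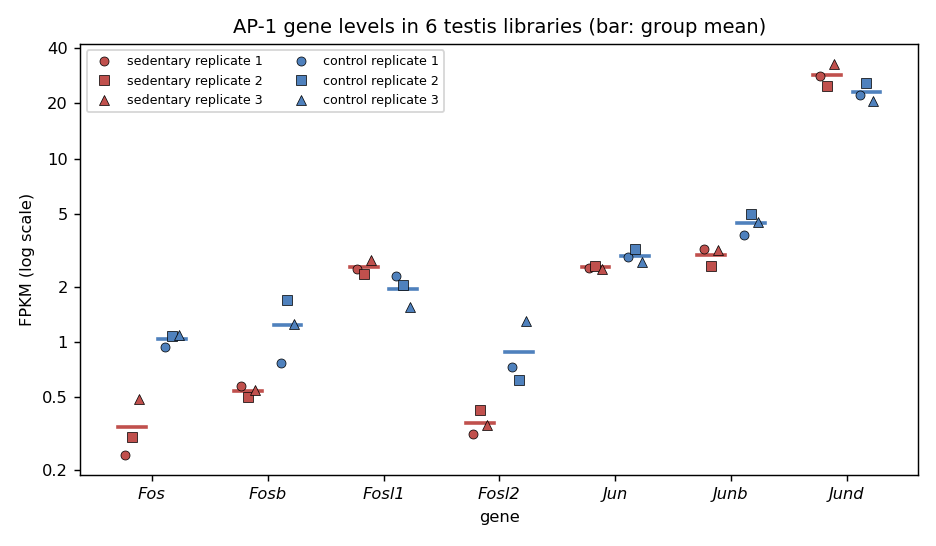
FPKM of the 7 AP-1 genes (log axis) in 3 sedentary (red) and 3 control (blue) testis libraries; each symbol is 1 library and each bar a group mean. For Fos, Fosb, Fosl2, Jun and Junb all 3 sedentary points lie below all 3 control points, for Fosl1 all lie above, and for Jund the groups overlap.

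Fos encodes the founding member of the family and is the classic marker of recent stimulation. It stood at 0.242, 0.304 and 0.489 FPKM in sedentary replicates 1, 2 and 3, against 0.944, 1.07 and 1.09 FPKM in control replicates 1, 2 and 3. The control libraries lay close together, while the highest sedentary library, replicate 3, was still far below the lowest control. These levels rest on 19, 27 and 39 reads in the sedentary libraries and on 87, 72 and 85 reads in the control libraries. The mean was 0.345 ± 0.129 FPKM in sedentary and 1.04 ± 0.0803 FPKM in control testes (SD, n = 3 each), so that the sedentary mean was 33.3% of the control mean. The log2 difference, sedentary minus control, was -0.87 with an SE of 0.16 on log2(FPKM + 0.5), a scale that understates the change of low genes, and -1.62 with an SE of 0.30 on the recovered reads. Fos lies on chromosome 12 from 88741461 to 88744847 in the deposited table, whose genome build is not given in the sources used here and whose gene identifiers are of the C57BL/6NJ strain (MGP_C57BL6NJ_G0020349).

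Fosb, which is induced with Fos and gives a truncated form known for its long life in brain, stood at 0.575, 0.501 and 0.551 FPKM in the sedentary libraries, against 0.768, 1.69 and 1.25 FPKM in the control libraries. The sedentary values were nearly equal and the control values were spread widely, with control replicate 1 nearest to the sedentary libraries. The means were 0.542 ± 0.0381 FPKM in sedentary and 1.24 ± 0.463 FPKM in control testes (SD, n = 3 each). The log2 difference was -0.70 with an SE of 0.20 on FPKM and -1.07 with an SE of 0.27 on the reads. The table places it on chromosome 7 from 18160456 to 18167782 (MGP_C57BL6NJ_G0032217).

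Fosl2, which encodes Fra-2, a Fos protein without the strong activation domain of Fos, stood at 0.315, 0.425 and 0.353 FPKM in the sedentary libraries, against 0.728, 0.619 and 1.31 FPKM in the control libraries. Here control replicate 3 stood well above the other controls, and the groups did not overlap. The means were 0.365 ± 0.0559 FPKM in sedentary and 0.885 ± 0.371 FPKM in control testes (SD, n = 3 each). The log2 difference was -0.65 with an SE of 0.20 on FPKM and -1.21 with an SE of 0.24 on the reads, and without control replicate 3 it was -0.44 on FPKM. The reads numbered 374 over the sedentary and 869 over the control libraries. Its place in the table is chromosome 5 from 32004578 to 32026626 (MGP_C57BL6NJ_G0029863).

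Fosl1, which encodes Fra-1, differed in direction from the other Fos genes. It stood at 2.51, 2.35 and 2.80 FPKM in the sedentary libraries, against 2.29, 2.04 and 1.55 FPKM in the control libraries. The groups did not overlap, but sedentary replicate 2 and control replicate 1 nearly met. The means were 2.56 ± 0.226 FPKM in sedentary and 1.96 ± 0.372 FPKM in control testes (SD, n = 3 each), a log2 difference of 0.32 with an SE of 0.14. Without control replicate 3 that difference was 0.20. On the reads, 457 in sedentary and 340 in control libraries, it was 0.39 with an SE of 0.19. The table has the gene on chromosome 19 from 2470854 to 2480774 (MGP_C57BL6NJ_G0025119).

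Among the Jun genes, Junb, which can oppose Jun at many promoters, stood at 3.23, 2.59 and 3.16 FPKM in the sedentary libraries, against 3.83, 5.02 and 4.49 FPKM in the control libraries. The means were 2.99 ± 0.351 FPKM in sedentary and 4.44 ± 0.596 FPKM in control testes (SD, n = 3 each), and the groups did not overlap. The log2 difference was -0.50 with an SE of 0.13 on FPKM and -0.56 with an SE of 0.16 on 575 sedentary and 813 control reads. Junb is placed on chromosome 8 from 89205616 to 89207455 (MGP_C57BL6NJ_G0034380).

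Jun, the main partner of Fos, stood at 2.55, 2.60 and 2.51 FPKM in the sedentary libraries, against 2.93, 3.21 and 2.74 FPKM in the control libraries. The sedentary libraries were almost identical and lay just below the lowest control. The means were 2.55 ± 0.0484 FPKM in sedentary and 2.96 ± 0.238 FPKM in control testes (SD, n = 3 each), and the log2 difference was -0.18 with an SE of 0.10. On 856 sedentary and 948 control reads it was -0.21 with an SE of 0.13. The gene is placed on chromosome 4 from 98755429 to 98758617 (MGP_C57BL6NJ_G0028876).

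Jund, which restrains proliferation in several cell types and is needed for normal sperm production in mice, stood at 28.1, 25.0 and 32.9 FPKM in the sedentary libraries, against 22.2, 25.9 and 20.6 FPKM in the control libraries. Sedentary replicate 2 lay below control replicate 2, so the groups overlapped. The means were 28.7 ± 4.01 FPKM in sedentary and 22.9 ± 2.69 FPKM in control testes (SD, n = 3 each), a log2 difference of 0.31 with an SE of 0.12. With 8620 sedentary and 6595 control reads it is the best sampled member, and on the reads the difference was 0.32 with an SE of 0.11. The table has it on chromosome 8 from 73659962 to 73662838 (MGP_C57BL6NJ_G0034215).

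Of the 7 members, 5 were lower in the sedentary testes with groups that did not overlap, against 10.8% of all 19201 tested genes. One member, Fosl1, was higher without overlap, against 13.7% of all tested genes. Since the members were chosen with this contrast in view, nothing is read from these counts. Fos, Fosb and Fosl2 had the largest log2 differences in size on both scales, and these are also the 3 members of lowest mean level.

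**Figure D2:**
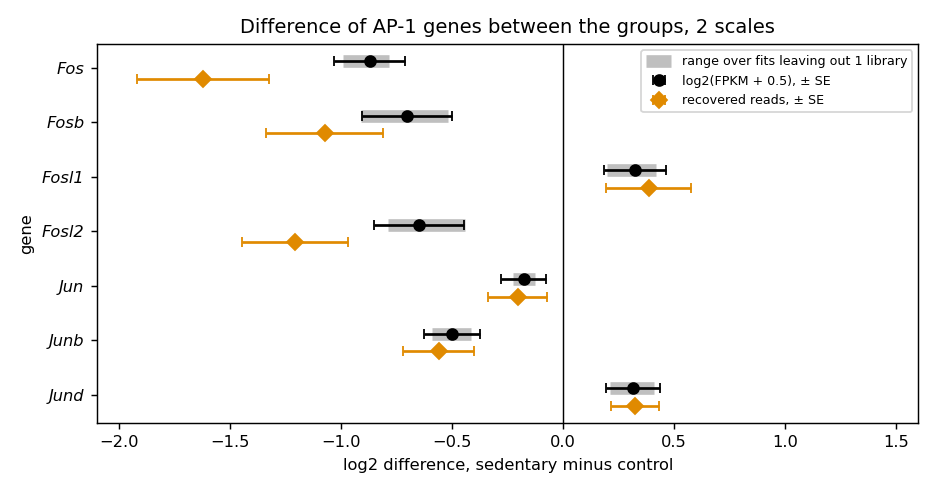
Log2 difference, sedentary minus control, of the 7 AP-1 genes on log2(FPKM + 0.5) (black circles) and on recovered reads (orange diamonds), each with its SE; grey bands span the 6 fits on FPKM that each leave out 1 library. Every band stays on its side of 0, and the 2 scales differ most for Fos, at -0.87 and -1.62.

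The order of levels differed between the groups in the middle and at the bottom. In sedentary testes it ran Jund, Junb, Fosl1, Jun, Fosb, Fosl2 and Fos, and in control testes Jund, Junb, Jun, Fosl1, Fosb, Fos and Fosl2. In sedentary testes the libraries overlapped between the neighbours Junb and Fosl1, Fosl1 and Jun, and Fosl2 and Fos. In control testes they overlapped between Fosl1 and Fosb, Fosb and Fos, and Fos and Fosl2. These orders rest on the authors' gene lengths, which for Fosl2 is 9699 bases and for Fos 2352 bases.

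Jund made up a larger part of AP-1 transcripts in the sedentary libraries, without overlap between the groups, though its own FPKM overlapped. The 7 genes were chosen with several already seen lower in sedentary testes, so this share is a description and in part built in. Jund gave 75.3 ± 1.52% of the summed FPKM of the 7 genes in sedentary and 64.6 ± 1.92% in control testes (SD, n = 3 each). By library it gave 74.9%, 74.0% and 77.0% in sedentary replicates 1, 2 and 3, against 65.9%, 65.5% and 62.4% in control replicates 1, 2 and 3. The 3 genes Fos, Fosb and Fosl2 together gave 3.31 ± 0.315% in sedentary and 8.95 ± 1.93% in control testes. Their summed level was 1.25 ± 0.131 FPKM in sedentary and 3.16 ± 0.637 FPKM in control testes. Jun and Junb together stood at 5.54 ± 0.310 FPKM in sedentary and 7.40 ± 0.753 FPKM in control testes. The sum of all 7 was 38.0 ± 4.55 FPKM in sedentary and 35.4 ± 3.56 FPKM in control testes, with overlapping groups. The total thus hides the differences of the rarer genes, because Jund makes up most of it.

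**Figure D3:**
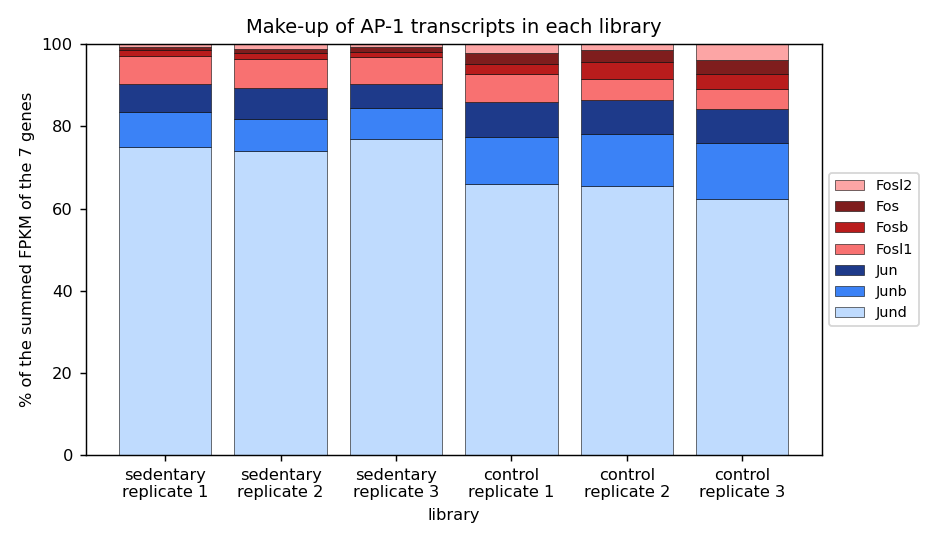
Share of each AP-1 gene in the summed FPKM of the 7 genes (percent), for 3 sedentary libraries on the left and 3 control libraries on the right. The Jund share lies between 74.0% and 77.0% in sedentary and between 62.4% and 65.9% in control libraries, and the reds at the top, the Fos family, are thinner in the sedentary bars.

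Within a group the members did not move as 1 block from mouse to mouse. Across the 6 libraries, deviations from the group mean followed a similar pattern in Fosb and Junb (r = 0.84), which were both lowest in control replicate 1 and highest in control replicate 2. Fosl2 went the other way from Fosl1 (r = -0.83) and from Jun (r = -0.82), with its highest deviation in control replicate 3, where Fosl1 and Jun had their lowest. Of the 21 pairs of members 13 had a correlation of deviations above 0. These r values are descriptions over 6 libraries that share their group means, and genes in a library share its depth and tissue make-up.

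Among 14029 named genes with a mean of at least 1 FPKM, those whose level followed Fos most closely over the 6 libraries included Rbm5, 4930480G23Rik, Cnn3 and Arhgap30, with Pearson correlations between 0.979 and 0.985. Rbm5, an RNA-binding splicing regulator known to be needed for sperm formation, stood at 5.63, 5.81 and 6.22 FPKM in sedentary and at 6.73, 7.06 and 7.33 FPKM in control replicates 1, 2 and 3. Its 2 groups lay closer together than those of Fos. Within groups, the best matches to the deviations of Fos were Ccdc137, Phf21b, Cldn5, Vpreb3 and A930002H24Rik, with correlations of 0.994 and above. Cldn5, the claudin of endothelial junctions, stood at 2.14, 2.43 and 3.65 FPKM in sedentary and at 2.53, 3.00 and 3.16 FPKM in control replicates 1, 2 and 3, so it shared the order of Fos inside each group and not the difference between groups. These genes were picked for likeness out of many, over 6 libraries, and nothing further is read from it.

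The 3′ untranslated regions of the members were read for the pentamer ATTTA, the core of the AU-rich elements that are known to speed the decay of Fos messengers. The stretches shown are those of 30 bases with the most pentamers in the longest coding transcript of Fos and Fosl2, the 2 members that hold the longer element TTATTTATT, and of Jund for contrast (GENCODE M21, GRCm38). Capitals mark ATTTA.
Fos 3' UTR, chr12:85477101-85477130, plus strand: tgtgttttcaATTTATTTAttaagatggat
Fosl2 3' UTR, chr5:32156865-32156894, plus strand: attgacATTTAttttattATTTAttttaaa
Jund 3' UTR, chr8:70700359-70700388, plus strand: cgattccgccctATTTAtgtttctactcgg
Fos had 4 pentamers in 815 bases, or 4.91 per kilobase, more than 92.1% of 19806 genes with a 3′ untranslated region of at least 100 bases, whose median was 1.35 per kilobase. Junb had 4.12, Jun 3.24, Jund 1.88, Fosl2 1.72, Fosl1 1.57 and Fosb 0.466 per kilobase. The longer element TTATTTATT, which contains ATTTA, was found in Fos and Fosl2 alone of the 7, and in 8.01% of all these genes. Fosb had the lowest density of the 7 and Fos the highest. A link between this density and the differences between the groups was not tested. Jun, Junb and Jund have 1 exon each in this annotation, and the Fos genes have 4.

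Other bZIP proteins that pair with Fos or Jun, among them ATF, MAF and BATF proteins, gave no call. Of 16 listed genes 15 were in the table and 11 passed the filter. By limma on FPKM 0 of the 11 passed an adjusted p of 0.05, against 0.026% of all tested genes, 1 had an unadjusted p under 0.05, against 17.4% of all tested genes, and 0 passed by voom on the reads, against 1.44% of all tested genes. The largest differences, in genes that did not pass, were those of Ddit3, the stress factor CHOP, and Mafk, a small MAF protein. Ddit3 averaged 40.4 ± 2.96 FPKM in sedentary and 34.7 ± 3.53 FPKM in control testes, and Mafk 4.14 ± 0.0514 FPKM in sedentary and 4.76 ± 0.0913 FPKM in control testes (SD, n = 3 each). Atf3, another immediate early bZIP gene, stayed under the filter, at 0.0737 to 0.192 FPKM in sedentary and 0.190 to 0.448 FPKM in control testes, with overlapping groups.

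MAP kinases, their upstream kinases and the factors that induce Fos, such as Srf and Creb1, gave 0 calls among 31 tested of 33 genes, on FPKM and on the reads. The share called of all tested genes was 0.026% on FPKM and 1.44% on the reads. On FPKM 5 of the 31 had an unadjusted p under 0.05, all higher in sedentary testes, against 17.4% of all tested genes in either direction and 10.1% higher. Mapk13, a p38 kinase, stood at 0.634, 0.612 and 0.937 FPKM in sedentary and at 0.304, 0.279 and 0.359 FPKM in control replicates 1, 2 and 3 (adjusted p of 0.207 by limma and 0.0909 by voom). It passed the filter in 3 sedentary and 0 control libraries, only through the group in which it was higher. Rps6ka4, the kinase MSK2, which phosphorylates CREB, averaged 10.9 ± 0.660 FPKM in sedentary and 8.53 ± 0.700 FPKM in control testes (SD, n = 3 each; adjusted p of 0.205 by limma and 0.0731 by voom). The list median of the log2 differences was 0.03, beside 0.01 for all tested genes.

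Genes that end the AP-1 response, such as dual-specificity phosphatases, and genes of Jun and Fos turnover also gave 0 calls, among 19 tested of 21. Of all tested genes 0.026% were called on FPKM and 1.44% on the reads. Dusp1, an immediate early phosphatase of MAP kinases, stood at 3.94, 2.73 and 3.44 FPKM in sedentary and at 4.56, 5.66 and 4.35 FPKM in control replicates 1, 2 and 3, without overlap (adjusted p of 0.208 by limma and 0.0697 by voom). Zfp36l1, which binds AU-rich elements and promotes decay, averaged 0.465 ± 0.110 FPKM in sedentary and 0.749 ± 0.145 FPKM in control testes (SD, n = 3 each; adjusted p of 0.289 by limma and 0.148 by voom). On FPKM 2 of the 19 genes had an unadjusted p under 0.05, both lower in sedentary testes, against 17.4% of all tested genes in either direction and 7.26% lower.

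Other immediate early genes were split. Of 30 listed genes 25 were tested, 17 with a difference below 0 and 8 above 0, and the median log2 difference was -0.08, beside 0.01 for all tested genes. On FPKM 0 passed and 7 of the 25 had an unadjusted p under 0.05, of which 4 were lower, against 17.4% of all tested genes in either direction and 7.26% lower. On the reads 4 fell and 0 rose, against 1.12% of all tested genes lower. The list was drawn up with earlier results of these data known, so these counts and the p-values below are descriptions. Egr1, a zinc finger factor induced by the same signals as Fos, stood at 1.34, 1.09 and 1.77 FPKM in sedentary and at 2.12, 3.70 and 2.45 FPKM in control replicates 1, 2 and 3, with a log2 difference of -0.95 on the reads and an adjusted p of 0.0285 by voom. Btg2, an antiproliferative gene, averaged 1.44 ± 0.445 FPKM in sedentary and 2.85 ± 0.351 FPKM in control testes (adjusted p of 0.0193 by voom). Ccn1 and Ccn2, matrix-associated signalling proteins deposited as Cyr61 and Ctgf, averaged 0.857 ± 0.190 and 7.75 ± 0.943 FPKM in sedentary testes and 1.71 ± 0.348 and 11.2 ± 1.74 FPKM in control testes (SD, n = 3 each; adjusted p of 0.0443 and 0.0389 by voom). The adjusted p of these 4 by limma on FPKM lay between 0.199 and 0.205. All lost the call on the reads without some library. For Btg2 these were control replicate 3 and sedentary replicate 1, with an adjusted p of up to 0.0730, and Egr1 lost it without these or sedentary replicate 3, with up to 0.0886. Ccn1 lost it without control replicate 1 or any sedentary replicate, with up to 0.152, and Ccn2 without any library but control replicate 2, with up to 0.194. Arc, an immediate early gene of neurons that is abundant in these testes, averaged 93.7 ± 9.03 FPKM in sedentary and 73.9 ± 9.40 FPKM in control testes and did not pass (adjusted p of 0.215 by limma and 0.0731 by voom); it was named after its values were seen.

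Genes known as AP-1 targets, such as matrix proteases, cell cycle and metallothionein genes, gave 1 call on the reads. Of 29 listed genes 15 were tested, 6 with a difference below 0 and 9 above, with a median of 0.07. The 1 call was of a lower level, against 1.12% of all tested genes lower. On FPKM 0 passed and 4 of the 15 had an unadjusted p under 0.05, 2 lower and 2 higher. The shares of all tested genes at that p were 7.26% lower and 10.1% higher. Star, which carries cholesterol into mitochondria for steroid synthesis and is regulated by Jun in Leydig cells, stood at 22.3, 22.2 and 22.9 FPKM in sedentary and at 32.5, 31.0 and 48.0 FPKM in control replicates 1, 2 and 3. Voom on the reads called it lower, at a log2 difference of -0.70 and an adjusted p of 0.0148, which was 0.0849 without sedentary replicate 3. By limma the adjusted p was 0.199. Mmp2, a gelatinase of stromal cells, averaged 0.297 ± 0.145 FPKM in sedentary and 0.681 ± 0.149 FPKM in control testes (SD, n = 3 each) and did not pass (adjusted p of 0.218 by limma and 0.0555 by voom). It reached the filter in 0 sedentary and 3 control libraries, only through the group in which it was higher. Taking the 5 lists as 1, with genes counted once, 101 genes were tested and 0 passed on FPKM. Of the 101 genes 19 had an unadjusted p under 0.05, against 17.4% of all tested genes. On the reads 5 fell and 0 rose, against 1.12% of all tested genes lower and 0.318% higher. That count of 5 was 3, 9 and 2 without control replicate 1, 2 or 3 and 1, 6 and 1 without sedentary replicate 1, 2 or 3, with 3 of the 9 and 3 of the 6 higher. All 5 lists were drawn up with earlier results of these data known, so nothing is read from their counts and p-values.

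**Figure D4:**
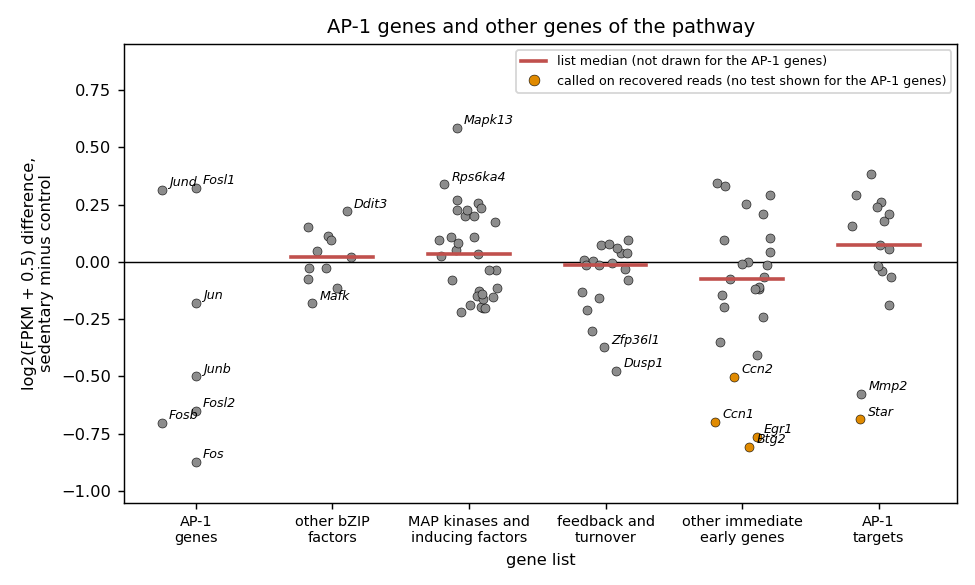
Difference of log2(FPKM + 0.5), sedentary minus control, for the 7 AP-1 genes and for 5 lists of other genes of the pathway; each point is 1 gene, red bars are list medians and orange points are genes called by voom on the recovered reads. The list medians lie between -0.08 and 0.07, and the called genes, Btg2, Egr1, Ccn1, Ccn2 and Star, all lie below 0.

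Markers of cell types moved with the groups in some lists. The libraries held testis markers, with summed levels of 9 elongating spermatid genes between 30911 and 33454 FPKM in sedentary and between 23975 and 28518 FPKM in control libraries. All 12 Sertoli markers were higher in sedentary testes by their means, with sums of 985 to 1112 FPKM in sedentary and 794 to 877 FPKM in control libraries. All 8 fibroblast markers were lower, with sums of 30.6 to 37.9 FPKM in sedentary and 40.9 to 63.3 FPKM in control libraries. Sums of macrophage, endothelial, Leydig and peritubular muscle markers overlapped between the groups, though 8 of 10 endothelial, 7 of 8 Leydig and 7 of 8 peritubular markers had a lower sedentary mean. Of all 19201 tested genes 9175 had a log2 difference below 0. Only 5 of the 10 endothelial markers passed the filter on low values. Most of the peritubular sum is Actg2, at 223.8 to 245.3 FPKM in sedentary and 192.2 to 222.6 FPKM in control libraries. Actg2 is the peritubular marker with a higher sedentary mean, so that sum hides the lower levels of the others. Most of the Leydig sum is Insl3, at 742.9 to 1178 FPKM in sedentary and 827.5 to 1167 FPKM in control libraries. Sums of spermatogonial markers were 48.1 to 55.8 FPKM in sedentary and 41.9 to 47.7 FPKM in control libraries, and those of neutrophil and blood markers 7.04 to 7.85 FPKM in sedentary and 5.55 to 5.71 FPKM in control libraries, with 3 of 8 and 3 of 6 markers lower by their means. The largest part of the spermatogonial sum is Uchl1, at 26.2 to 31.3 FPKM in sedentary and 19.9 to 23.1 FPKM in control libraries, so that sum mostly follows 1 gene. Kit went the other way, at 2.25 to 2.76 FPKM in sedentary and 3.24 to 4.43 FPKM in control libraries. The blood sum is nearly all Alas2, a gene of heme synthesis, at 7.04 to 7.59 FPKM in sedentary and 5.29 to 5.68 FPKM in control libraries, and the other 5 blood markers found lay between 0 and 0.135 FPKM. Spermatocyte sums overlapped, with 8 of 8 markers lower in sedentary testes. Of 10 epididymis markers 3 passed the filter, Rnase10, Defb15 and Spink8, and their list sums overlapped between the groups. Rnase10 lay at 2.18 to 3.34 FPKM in sedentary and 1.67 to 2.80 FPKM in control libraries. Defb15 lay at 2.43 to 3.14 FPKM in sedentary and 3.85 to 4.07 FPKM in control libraries, without overlap. Lcn8 and Adam7 were listed at 0 in all libraries, and of the neutrophil and blood markers S100a8. The part of these cell types in the levels of the AP-1 genes was not tested.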

How the data were processed

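The authors deposited 1 table of FPKM values per gene, with gene lengths, for 6 testis libraries. HISAT2, StringTie and DESeq2 and the builds mm10 and mm39 are named per the submitters' processing notes, with no versions or roles; the table's build is not given in the sources used here. FPKM multiplied by gene length fell on whole multiples of 1 step per library for 100% of values (tolerance 0.001), so whole reads were recovered. In each library genes with 2 reads (1586 to 1719) outnumbered those with 1 read (925 to 1060), a sign of both mates being counted, and single reads cannot be taken as independent molecules.

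The test was limma 3.58.1 (R 4.3.3) with a variance trend on log2(FPKM + 0.5), two-sided, over the 19201 genes that reached 0.5 FPKM in 3 or more of the 6 libraries. P-values were adjusted by Benjamini-Hochberg over all of these genes, with a threshold of 0.05. It called 5 genes. Voom on the recovered reads with the implied totals called 277 and was an alternative. Both were also run on simulated data with the same dispersion for every gene, which cannot vouch for the calls on the real libraries. No member carries a p. The alternatives were other pseudocounts, filters and scalings, a replicate block, and fits without each library.

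The members and lists were chosen with earlier results of these data known. Of 129 pathway genes 123 were found by symbol or an older symbol. The genes named are the 7 members; in each list those called in either fit, up to 4 by size of difference, filled to 2 with the largest that did not pass; and the 5 genes most like Fos over all libraries and the 5 within groups, of which 1 is not reported here. The labels call the mice biological replicates. Promoters came from RefSeq (GRCm38.p6) and transcripts from GENCODE M21; their coordinates are not comparable with those of the table.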

Additional observations from a re-analysis of the deposited data

How the results depend on the processing

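All 7 AP-1 genes kept the sign of their difference in every alternative in which they were tested; Fos, Fosb and Fosl2 dropped out with the filter at 1 FPKM, which left 2 of 4 members lower in place of 5 of 7. The count of 5 genes called by limma on FPKM was 1 with no filter, 3 with the filter at 1 FPKM, 0 with the replicate block, 277 by voom on the reads, and between 0 and 2 without 1 library, on fewer samples, with 2297 to 3590 genes at an unadjusted p under 0.05 in the 3 fits with 0 calls; on the other alternatives it lay between 4 and 7. The count of other pathway genes called was 0 on FPKM in every setting and 5 by voom. The cause of the gap between FPKM and reads was not tested. Voom called between 22 and 1058 genes without 1 library, a fit added after the data were seen.

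In the labels, replicates share only a number. Deviations of same-numbered libraries correlated at -0.07, -0.09 and -0.03, and 0 of 3 sedentary libraries matched its own number best. With 3 libraries in a group these values cannot exclude a shared batch. With the replicate block 0 genes passed, with 2451 at an unadjusted p under 0.05, and 5 of 7 members stayed lower. Under TPM scaling the median log2 difference of all genes was -0.09 in place of 0.01, with Jund at 0.20, Fosl1 at 0.23, Jun at -0.28 and Fos at -0.93. Pseudocounts of 0.1 and 1 FPKM put Fos at -1.39 and -0.60. Depth limits the rarest members most, since Fos had 85 reads over the sedentary and 244 over the control libraries.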
